A study of Mus musculus with 30 samples.

Results

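The transcripts described here are those of the mitochondrial genome, taken as every row of the deposited gene count table whose gene symbol starts with mt-. These were 37 of 54146 rows: 13 protein genes, 2 rRNAs and 22 tRNAs. The libraries came from the small intestinal epithelium of female C57BL/6J mice (strain C57BL/6 in the sample characteristics). All were wild type (WT in the sample titles), 8 to 10 weeks old, and fed the semi-purified AIN93G diet for 1 week. By gavage, 3 mice received corn oil (vehicle) and 3 mice 10 µg of indolo[3,2-b]carbazole (ICZ, an agonist of the aryl hydrocarbon receptor) in corn oil. After 12 h the epithelium of each mouse was taken off with EDTA in 5 consecutive steps, giving fractions F1 to F5, and each fraction became a 3′ end library. Vehicle mice contributed 15 libraries and ICZ mice 14, since ICZ replicate 3 is analysed here from F2 onwards. The labels give the animals as replicates and do not say which stretch of the crypt-villus axis a fraction holds. Fewer cells of a type and less RNA per cell cannot be told apart in such bulk libraries.

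The mitochondrial genome encodes core subunits of the respiratory chain and ATP synthase, together with the rRNAs and tRNAs that translate them inside the organelle. Both of its strands are transcribed as long precursors, which are cut largely at the tRNAs, after which most of the mRNAs and the rRNAs receive an A tail. In some mRNAs this tail completes the stop codon. Mature tRNAs end in CCA and carry no such tail, whereas the library kit primes on runs of A, so reads in a tRNA row are not a measure of mature tRNA. In the small intestine, absorptive enterocytes are rich in mitochondria, and crypt cells change their mitochondrial metabolism as they mature.

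The gene ends are shown first because a 3′ end library reads them. The last 60 bases of 6 protein genes (GENCODE M21 transcripts, build GRCm38, mitochondrial chromosome) follow 5′ to 3′, with the letters of the stop codon that the gene itself holds in capitals. mt-Nd4 (chrM:10167-11544), mt-Co3 (chrM:8607-9390) and mt-Cytb (chrM:14145-15288) end in a lone T, and mt-Nd1 (chrM:2751-3707), mt-Nd2 (chrM:3914-4951) and mt-Co2 (chrM:7013-7696) hold a whole stop codon. All 6 lie on the plus strand and have no intron.
mt-Nd4: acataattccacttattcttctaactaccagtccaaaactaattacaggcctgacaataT
mt-Cytb: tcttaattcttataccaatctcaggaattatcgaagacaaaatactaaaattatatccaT
mt-Nd1: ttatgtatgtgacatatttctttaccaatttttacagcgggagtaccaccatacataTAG
mt-Nd2: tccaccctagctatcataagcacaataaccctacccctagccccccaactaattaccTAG
mt-Co2: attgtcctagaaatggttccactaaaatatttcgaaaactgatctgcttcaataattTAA
mt-Co3: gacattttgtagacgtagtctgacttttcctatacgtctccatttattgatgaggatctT

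Reads were spread very unevenly over the rows. Over the 29 libraries the mt- rows held 47744475 reads, of which the protein genes had 25643664, the rRNAs 21903295 and the tRNAs 197516. mt-Nd4, a membrane subunit of complex I, alone had 11635247 reads, which was 45.4% of the protein gene reads. Reads in every library were found for 7 protein genes: the complex I genes mt-Nd1, mt-Nd2, mt-Nd4, mt-Nd5 and mt-Nd6, the complex III gene mt-Cytb (cytochrome b) and the complex IV gene mt-Co1. The other complex IV genes mt-Co2 and mt-Co3, the ATP synthase genes mt-Atp6 and mt-Atp8, and mt-Nd4l of complex I had 0 reads in all 29 libraries, and mt-Nd3 had 5 reads in all. Among the tRNAs, 15 had reads in every library and 7 (mt-Tw, mt-Ty, mt-Ts1, mt-Td, mt-Tk, mt-Tg and mt-Th) had none. The fractions and the treatment are therefore described on 7 protein genes, 2 rRNAs and 15 tRNAs, all of which passed the filter on low counts in every comparison.

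**Figure D1:**
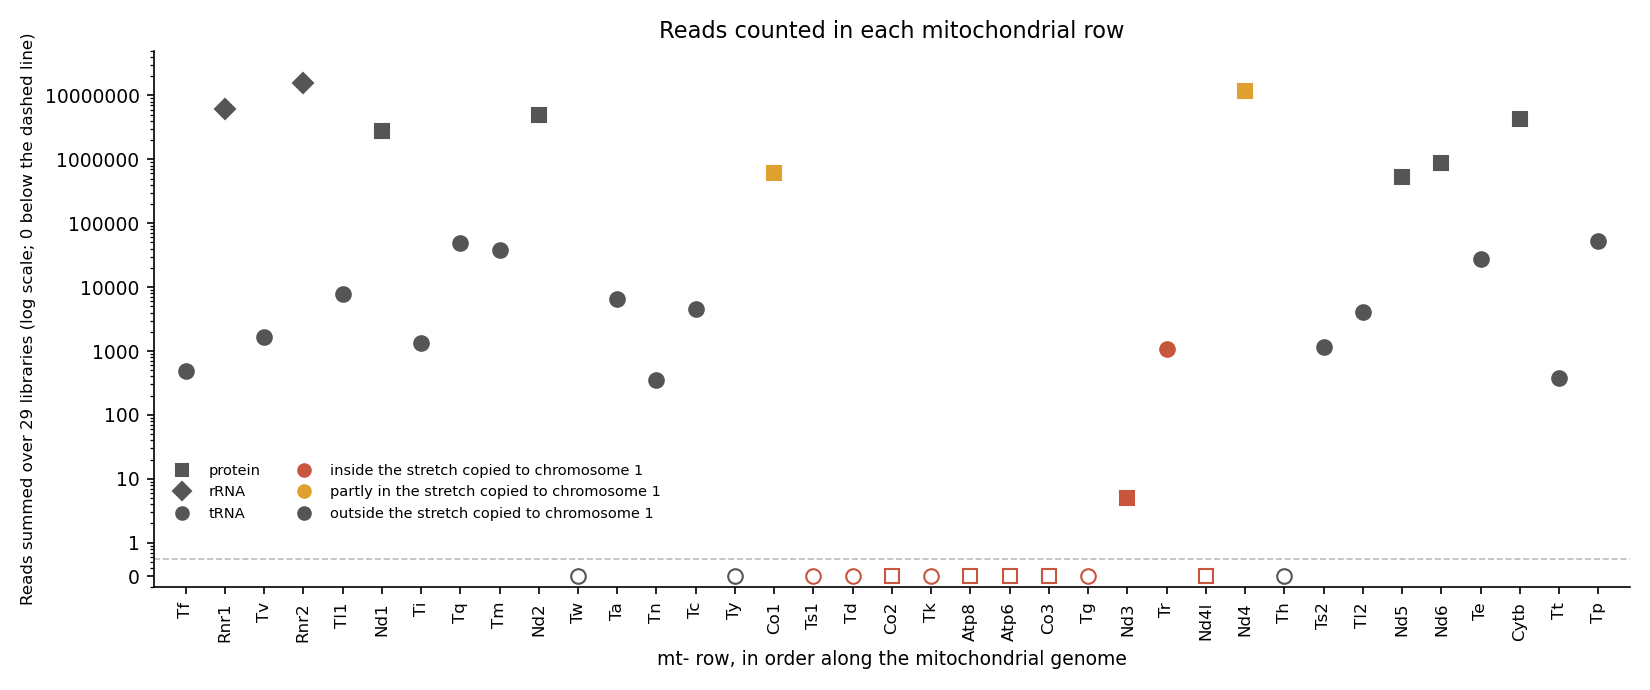
Reads summed over 29 libraries for each mt- row (vertical log axis, with 0 drawn below the dashed line), in order along the mitochondrial genome; squares are protein genes, diamonds rRNAs and circles tRNAs, and colour gives the position relative to the stretch with a copy on chromosome 1. The rows from mt-Ts1 to mt-Nd4l are at 0 except mt-Nd3 (5 reads) and mt-Tr (1058 reads).

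Most of the empty rows lay next to each other. A stretch of 4653 bases of the mitochondrial genome, from base 6390 to base 11042, has a near-identical nuclear copy on the minus strand of chromosome 1 (chr1:24611535-24616197, 4663 bases), annotated as 7 pseudogenes. Of the 11 mt- rows wholly inside that stretch, 9 had 0 reads, and the other 2 were mt-Nd3 and the arginine tRNA row mt-Tr, with 1058 reads. Of the 24 rows wholly outside it, 3 had 0 reads (mt-Tw, mt-Ty and mt-Th). The pseudogene rows did not hold the reads either, with 0 to 17 reads each over all 29 libraries. The counting tool leaves out reads of low mapping quality, which made up 18.0% to 26.5% of all reads per library; how many of them came from the mitochondrial genome was not tested.

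Where the 2 copies differ is shown by the pairs of sequences below. The annotated copies were identical to the mitochondrial genes over the whole aligned length for 5 of the 7 pseudogenes. The others held a single substitution each: T3C in Gm28438 against mt-Nd3 and A1066T in Gm29216 against mt-Co1, written as the mitochondrial base, its position from 1 at the 5′ end of the mitochondrial gene, and the base of the copy. The substituted base is in capitals. The first 9 bases of Gm29216 lie before the aligned stretch. A1066T is at base 13 of Gm29216 and the alignment starts at its base 10, so this difference sits at the edge. Whether it lies in the copy or in the flanking sequence was not tested, and the start of the stretch at base 6390 is uncertain by as much.
mt-Nd3: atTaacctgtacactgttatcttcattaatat
Gm28438: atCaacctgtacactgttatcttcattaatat
mt-Co1: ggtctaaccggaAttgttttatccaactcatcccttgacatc
Gm29216: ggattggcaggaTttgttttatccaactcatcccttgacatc
The spacers between the copied genes were as long on chromosome 1 as in the mitochondrial genome (140, 233, 2 and 69 bases), except that the spacer holding mt-Tr was 73 bases in the mitochondrial genome and 74 on chromosome 1. The last 300 bases of mt-Co1 were 100% identical to Gm29216, and mt-Co1 still had 602067 reads. mt-Nd4 is copied only in its first 876 bases, and none of its last 300 bases lie in the copy. Other nuclear copies were further from the mitochondrial sequence over the last 300 bases, with 96.7% identity for mt-Nd2 (Gm13339), 92.3% for mt-Cytb (Gm11410), 91.7% for mt-Nd6 (Gm11408) and 84.3% for mt-Nd5 (Gm11407), and no copy was found for mt-Nd1. Levels of mt-Co1 and of the rows inside the copied stretch are given as uncertain.

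Levels are given as CPM (counts scaled to a common library size, with TMM sizes), and between genes also per kilobase of gene length. The 16S rRNA mt-Rnr2 had the highest mean over the 29 libraries, 89129 CPM or 56339 CPM per kb, followed by mt-Nd4 (63521 CPM, 46096 per kb) and the 12S rRNA mt-Rnr1 (34996 CPM, 36645 per kb). These were the 3 most abundant rows of the whole table by CPM, and mt-Nd2 (26171 CPM per kb), mt-Cytb (20431 per kb) and mt-Nd1 (16297 per kb) came next. mt-Nd6, the only protein gene on the minus strand, stood at 9075 CPM per kb, mt-Co1, the catalytic subunit of cytochrome c oxidase, at 2169 per kb and mt-Nd5 at 1600 per kb. A 3′ end library gives about 1 priming region per transcript, so that the value per kb favours short genes. By CPM without length the order of these 9 rows was the same.

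By CPM every tRNA row lay below the 9 protein and rRNA rows. The proline row mt-Tp had a mean of 295 CPM, the glutamine row mt-Tq 267, the methionine row mt-Tm 215 and the glutamate row mt-Te 146, whereas the leucine row mt-Tl1 had 44.4, the alanine row mt-Ta 36.6 and the cysteine row mt-Tc 24.5. Per kb the order differed: mt-Tp (4410 CPM per kb), mt-Tq (3760) and mt-Tm (3114) stood above mt-Co1 and mt-Nd5, and mt-Te (2116) stood above mt-Nd5. Of these 7, mt-Tp, mt-Tq, mt-Te, mt-Ta and mt-Tc lie on the minus strand, opposite the precursor of most protein genes. The strand setting of the counting is not given in the sources used here, so reads of these rows and of RNA from the other strand cannot be told apart; the same holds for mt-Nd6, whose last 14 bases overlap mt-Nd5. The whole tRNA genes that the results below turn on are printed 5′ to 3′ as genes on their own strand, with every longest run of A in capitals, since the kit primes on A. mt-Tr holds the longest run of these 6.
mt-Tr: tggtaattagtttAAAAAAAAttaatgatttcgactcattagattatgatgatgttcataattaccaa
mt-Te: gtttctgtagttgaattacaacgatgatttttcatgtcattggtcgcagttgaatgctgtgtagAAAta
mt-Tc: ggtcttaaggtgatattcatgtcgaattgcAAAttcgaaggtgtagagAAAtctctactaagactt
mt-Ta: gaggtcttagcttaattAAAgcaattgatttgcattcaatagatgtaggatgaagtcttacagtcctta
mt-Tq: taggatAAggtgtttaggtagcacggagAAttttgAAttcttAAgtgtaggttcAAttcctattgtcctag
mt-Tp: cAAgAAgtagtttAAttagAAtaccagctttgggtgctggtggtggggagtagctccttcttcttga

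Library facts that bear on these rows are few. The 29 libraries held 4359673 to 7819837 gene reads (median 6351137), and mt-Nd5, the protein gene with fewest reads of the 7, had 10497 to 28714 in each. The tRNA rows rested on far fewer, with 8 to 89 reads per library for mt-Tr. All mt- rows together held 20.4% to 53.7% of gene reads (median 24.6%), highest in F5 of ICZ replicate 1 and next in F5 of vehicle replicate 1 (37.5%). Summed stroma and muscle marker levels were 9.81 to 28.7 CPM in the vehicle libraries and 35.6 to 169 CPM in the ICZ libraries. The sum includes Acta1, which was higher under ICZ in F3 (log2 fold change 2.85 ± 0.30, SE, edgeR adjusted p = 0.026). Only 2 of the 10 markers could be tested between the treatments in each of F1 to F4. The sum is therefore not read as an amount of stroma or muscle. The part of this difference in any result below was not tested.

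The protein genes together took 10.8% to 22.9% of gene reads over the 29 libraries (median 13.1%), with the highest shares in F5. In vehicle mice the share was 13.1%, 12.8% and 14.2% in F1 (replicates 1 to 3), and 19.9%, 12.8% and 13.2% in F5. Only vehicle replicate 1 was high in F5, and the F1 and F5 ranges overlapped. In ICZ mice the share was 12.8% and 13.7% in F1, 12.0%, 12.3% and 11.6% in F4, and 22.9%, 18.4% and 18.7% in F5. All 3 ICZ F5 libraries lay above every other ICZ library, and above the vehicle F5 libraries of replicates 2 and 3. The group means were 12.0% ± 0.333 in ICZ F4 and 15.3% ± 3.99 in vehicle F5 (SD, n = 3 each). The ratio of means was 1.67 for ICZ F5 to ICZ F4, 1.51 for ICZ F5 to ICZ F1, 1.31 for ICZ F5 to vehicle F5 and 1.14 for vehicle F5 to vehicle F1, and the last became 0.960 without vehicle replicate 1.

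**Figure D2:**
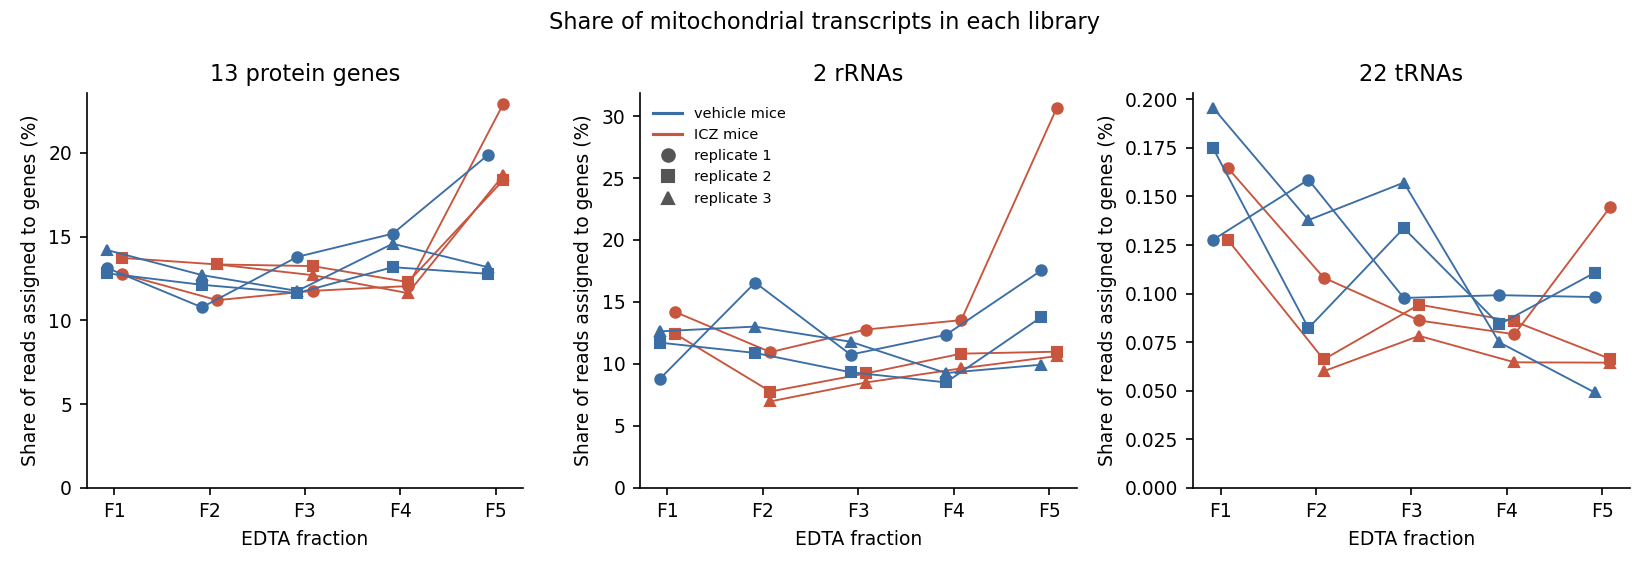
Share of gene reads (%, vertical axes from 0) in the 13 protein genes, the 2 rRNAs and the 22 tRNAs by EDTA fraction, 1 point per library and 1 line per mouse, blue for vehicle and red for ICZ. The 3 ICZ mice stand at 11.6% to 12.3% in F4 and at 18.4% to 22.9% in F5 for the protein genes, and ICZ replicate 1 stands alone at 30.6% for the rRNAs.

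The rRNAs did not follow the protein genes library by library. Their share lay between 6.98% and 30.6% of gene reads, and in ICZ F5 it was 30.6%, 11% and 10.6%. ICZ replicate 1 was therefore the single high library, and the other 2 lay within the range of ICZ F1 to F4. The ratio of rRNA to protein gene reads ran from 0.523 to 1.54 over the 29 libraries. The tRNA rows took between 0.0491% and 0.196% of gene reads, with means of 0.166% ± 0.0348 in vehicle F1 and 0.0860% ± 0.0326 in vehicle F5 (SD, n = 3 each).

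Within the vehicle mice, F5 was set against F1 to describe the rows without treatment. No protein gene and no rRNA passed the test, and 3 tRNA rows were lower in F5. Of the genes tested, 28.1% passed in either direction (3703 of 13164) and 13.2% were lower in F5, beside 3 lower of 15 tRNA rows, so a share of tRNA rows of this size is not far from that of all genes. mt-Nd4 had 67274, 66750 and 66262 CPM in F1 and 104380, 53102 and 56610 CPM in F5. The F5 values lay on both sides of the F1 values, with replicate 1 high. The median log2 fold change of the 7 protein genes was 0.09, and of all genes tested 0.02. For mt-Nd1, mt-Cytb and mt-Nd4 the small positive log2 fold changes of 0.23 ± 0.19, 0.26 ± 0.22 and 0.06 ± 0.20 (SE) turned negative, to -0.16, -0.14 and -0.30, without vehicle replicate 1.

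The tRNA rows that fell in the vehicle mice were those of arginine, glutamate and cysteine. mt-Te had 191, 279 and 339 CPM in F1 and 142, 94.2 and 28.4 CPM in F5. All 3 F5 values lay below all 3 F1 values, and the log2 fold change was -1.74 ± 0.51 (SE, edgeR adjusted p = 0.035). mt-Tr had 7.32, 14.1 and 13.1 CPM in F1 and 3.97, 4.41 and 1.7 CPM in F5, again without overlap (-1.76 ± 0.39, adjusted p = 0.0031). mt-Tc had 25.1, 43.4 and 47.3 CPM in F1 and 18.6, 16.3 and 9.22 CPM in F5 (-1.32 ± 0.39, adjusted p = 0.027). The highest mt-Tc values of vehicle replicates 2 and 3 were in F3, 46.4 and 88.8 CPM. Of the 15 tested tRNA rows 14 had a negative log2 fold change, with a median of -0.92. A test over all 5 vehicle fractions together, which 20.6% of genes passed, called mt-Tr (adjusted p = 0.010) and mt-Tc (adjusted p = 0.032) and none of the other mt- rows. Without vehicle replicate 3 none of the 3 tRNA rows passed, although 886 genes did.

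Markers differed between F1 and F5 as well, where 14.9% of all genes tested were higher and 13.2% lower in F5. From F1 to F5 in the vehicle mice 13 of 14 enterocyte markers were lower, and their summed level went from a range of 34570 to 45159 CPM to one of 12256 to 26021 CPM, with none of the 14 at 0. Dissociation-response genes (immediate early and heat shock genes) were higher for 15 of 15, from 612 to 1330 CPM summed in F1 to 3158 to 5541 CPM in F5. Stem cell markers were higher for 7 of 8, proliferation genes for 9 of 10 and Paneth cell markers for 7 of 7, and goblet cell markers were lower for 4 and higher for 1 of 6. None of 8 T cell markers and none of 2 tested stroma and muscle markers passed. Low-quality reads made up 19.5% ± 0.723 of reads in vehicle F1 and 22.6% ± 1.69 in vehicle F5 (SD, n = 3 each). The part of any of these in the tRNA rows was not tested.

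**Figure D3:**
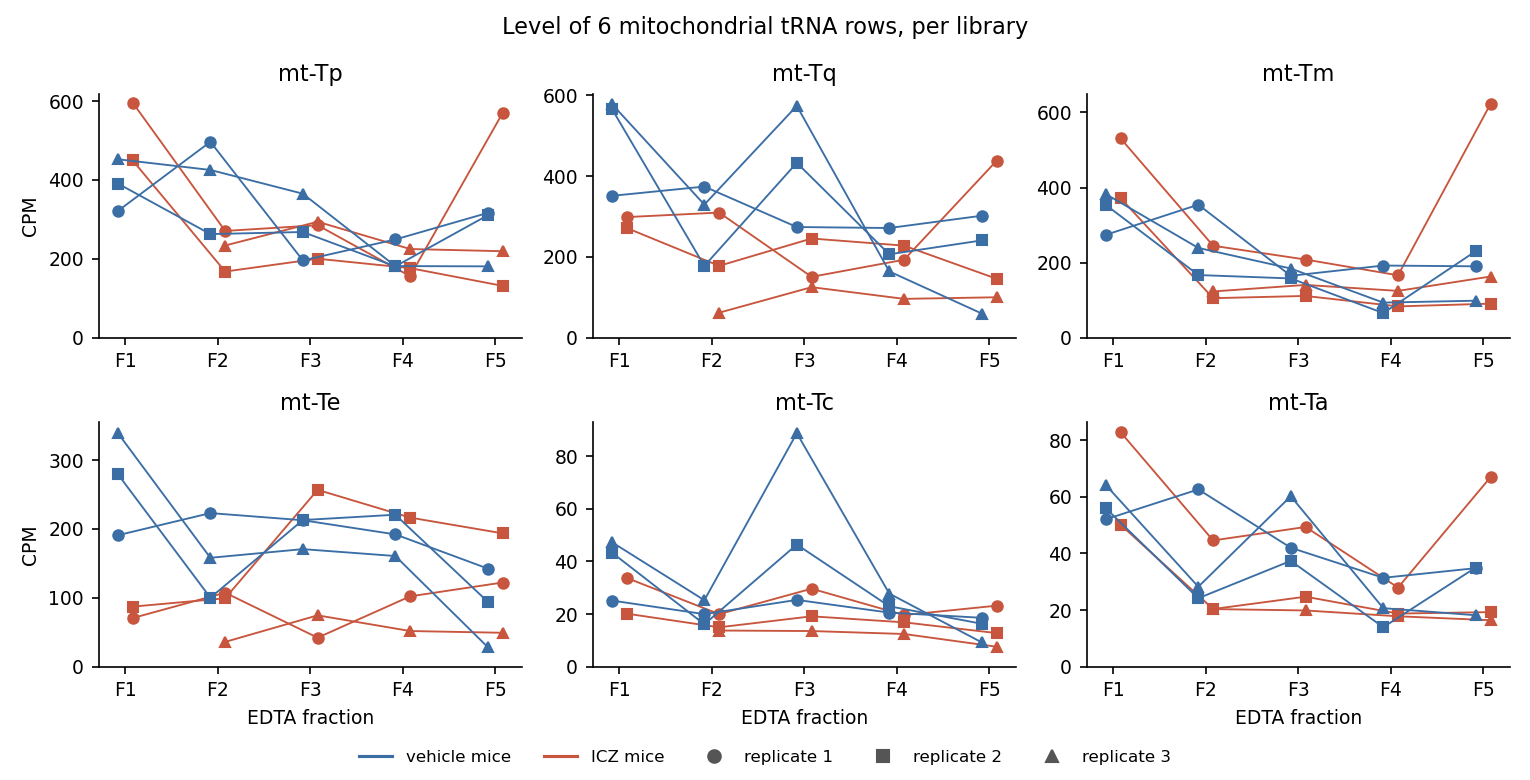
Level of 6 tRNA rows in CPM (vertical axes from 0) by EDTA fraction, 1 point per library and 1 line per mouse, blue for vehicle and red for ICZ. mt-Te stands at 191 to 339 CPM in vehicle F1 and at 70.6 and 87.2 CPM in ICZ F1, and ICZ replicate 1 is the high F5 library in mt-Tp, mt-Tq, mt-Tm and mt-Ta.

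In the ICZ mice mt-Cytb and mt-Nd1 were higher in F5 than in F1. mt-Cytb had 19552 and 24892 CPM in F1 and 62467, 34300 and 34177 CPM in F5. The F5 values all lay above the F1 values, and the log2 fold change was 0.98 ± 0.24 (SE, adjusted p = 0.0041). mt-Nd1 had 14535 and 16331 CPM in F1 and 42873, 20692 and 20147 CPM in F5, without overlap (0.86 ± 0.24, adjusted p = 0.011). The remaining 5 protein genes had positive log2 fold changes that did not pass, among them mt-Nd4 with 0.63 ± 0.24 (adjusted p = 0.051). Here 32.6% of genes passed (4339 of 13328) and 16.5% were higher, beside 2 higher of 7 protein genes. Without ICZ replicate 1 the log2 fold change of mt-Nd1 was 0.31 and it did not pass (adjusted p = 0.13). Without only the F5 library of that mouse it was 0.42 and passed (adjusted p = 0.0095). In the same comparison enterocyte markers were lower for 13 of 14, goblet cell markers lower for 4 and higher for 1 of 6, and T cell markers lower for 1 of 8. Stem cell markers were higher for 7 of 8, proliferation genes for 10 of 10, Paneth cell markers for 7 of 7 and dissociation-response genes for 9 of 15. Stroma and muscle markers were higher for 4 and lower for 1 of 6, the lower being Acta1 (-1.97 ± 0.20, SE). The part of these in the values was not tested.

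Among the tRNA rows of the ICZ mice, mt-Ta, mt-Tc and mt-Ts2 (serine) were lower in F5 than in F1, by log2 fold changes of -0.93 ± 0.22, -0.74 ± 0.21 and -0.996 ± 0.33 (SE, adjusted p = 0.0045, 0.010 and 0.027). mt-Ta had 82.8 and 50.1 CPM in F1 and 67.0, 19.3 and 16.4 CPM in F5. The F5 value of replicate 1 lay between the F1 values, and all 15 tRNA rows overlapped between ICZ F5 and ICZ F1; the test compares fractions within a mouse. Of all genes tested 16% were lower, so 3 lower of 15 tRNA rows is not far from the share of all genes. mt-Te, which was lower in F5 in the vehicle mice, had 70.6 and 87.2 CPM in ICZ F1 and 122, 194 and 49.2 CPM in ICZ F5, a log2 fold change of 0.88 ± 0.55 that did not pass (adjusted p = 0.26). Between F1 and F2 of the ICZ mice mt-Ta, mt-Ts2 and mt-Tl2 (leucine) were lower in F2, and 9.36% of all genes passed there (6.07% higher and 3.29% lower), beside 3 lower of 15 tRNA rows. That comparison rests on 2 F1 libraries: without ICZ replicate 3 no gene passed, and without ICZ replicate 2 the number was 34. With library totals in place of TMM that step shifted the median of all genes by 0.17 on the log2 scale, and the count of called genes fell from 1247 to 254, of which 74.0% were higher against 64.9%.

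Between F4 and F5 of the ICZ mice mt-Nd4, mt-Nd6 and mt-Cytb rose, in a comparison added after the data had been seen. For mt-Nd4 and mt-Nd6 the step started from an F4 below F1. In ICZ F1 mt-Nd4 had 67220 and 70212 CPM and mt-Nd6 5397 and 5536 CPM, above every ICZ F4 value of the same gene. The F5 values of mt-Nd6 in replicates 2 and 3 lay below both of its F1 values. mt-Cytb in F4 lay within its F1 range. mt-Nd4 had 41896, 47177 and 39961 CPM in F4 and 140020, 83797 and 86393 CPM in F5. Each F5 value lay above each F4 value, and the log2 fold change was 1.28 ± 0.21 (SE, adjusted p = 0.0098). mt-Nd6 had 2646, 3998 and 2353 CPM in F4 and 9280, 5143 and 4297 CPM in F5, again without overlap (1.07 ± 0.22, adjusted p = 0.038). mt-Cytb had 23974, 20493 and 24056 CPM in F4 and the F5 values given above, without overlap (0.94 ± 0.21, adjusted p = 0.0499). Only 0.503% of genes passed in this comparison (67 of 13328) and 0.195% were higher, beside 3 higher of 7 protein genes.

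The other 4 protein genes had the same sign in each ICZ mouse without passing the adjusted test. All 7 protein genes were higher in F5 in 3 of 3 mice, with a median log2 fold change of 0.88 against 0.01 over all genes tested, and all 7 had an unadjusted p below 0.05, as did 1585 of all 13328 genes tested. mt-Nd2, mt-Nd1 and mt-Nd5 had log2 fold changes of 0.87 ± 0.23, 0.87 ± 0.21 and 0.88 ± 0.22 with no overlap between F4 and F5. mt-Co1 had 3432, 2575 and 2845 CPM in F4 and 9674, 3027 and 3927 CPM in F5, which overlapped (0.85 ± 0.28, adjusted p = 0.25). The rRNA rows mt-Rnr1 and mt-Rnr2 had log2 fold changes of 0.87 ± 0.28 and 0.84 ± 0.31, adjusted p = 0.22 and 0.29, with ICZ replicate 1 far above the other mice in F5. Both rRNA rows were higher in F5 in 3 of 3 ICZ mice. Of 15 tRNA rows 14 had positive values, with a median of 0.51, and none passed. In vehicle mice the same step gave 0 called mt- rows (0.0684% of genes passed, and 954 genes of 13164 had an unadjusted p below 0.05) and a median of 0.15 over the 7 protein genes. All 7 had positive values there too. The vehicle medians were 0.51 for the 2 rRNAs and 0.48 for the 15 tRNA rows, of which 10 were positive.

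The other steps between neighbouring fractions gave no call among the mt- rows in edgeR, apart from the 3 tRNA rows between F1 and F2 of the ICZ mice. In vehicle mice 0%, 0% and 0.41% of genes passed from F1 to F2, F2 to F3 and F3 to F4 (0.41% higher in the last), and in ICZ mice 0.0075% passed from F2 to F3 and 0.045% from F3 to F4 (0.03% higher and 0.015% lower).

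The F4 to F5 step was refitted with libraries left out and with other sizes. Without the F5 library of ICZ replicate 1, the library with the highest mt- share, mt-Nd4 had a log2 fold change of 0.94 (adjusted p = 4.6e-05) and 5 mt- rows passed. Without the mouse as a block no gene of the table passed. Without ICZ replicate 3 none passed either, and mt-Nd4 had 1.36 (adjusted p = 0.81). With library totals in place of TMM sizes the median of all genes moved by -0.26 on the log2 scale, mt-Nd4 had 0.97 (adjusted p = 0.011) and mt-Cytb 0.62 (adjusted p = 0.061), and of the calls 11.9% were higher against 38.8%. Beside this step, stroma and muscle markers went from 35.6 to 49.3 CPM summed in ICZ F4 to 46.5 to 154 CPM in ICZ F5, with none of 10 at 0 in either group and 3 of 6 tested higher. Enterocyte markers were lower for 2 of 14. Of all genes tested 0.195% were higher and 0.308% lower in this step. Low-quality reads went from 22.9% ± 0.802 to 25.3% ± 1.59 (SD, n = 3 each). The part of these in the step was not tested. Whether the step differed between ICZ and vehicle mice was tested only as the ICZ effect over all fractions together, where 0 mt- rows of 24 passed (0.00711% of genes passed). In that test mt-Nd4 had an unadjusted p of 0.0096 and an adjusted p of 0.90.

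**Figure D4:**
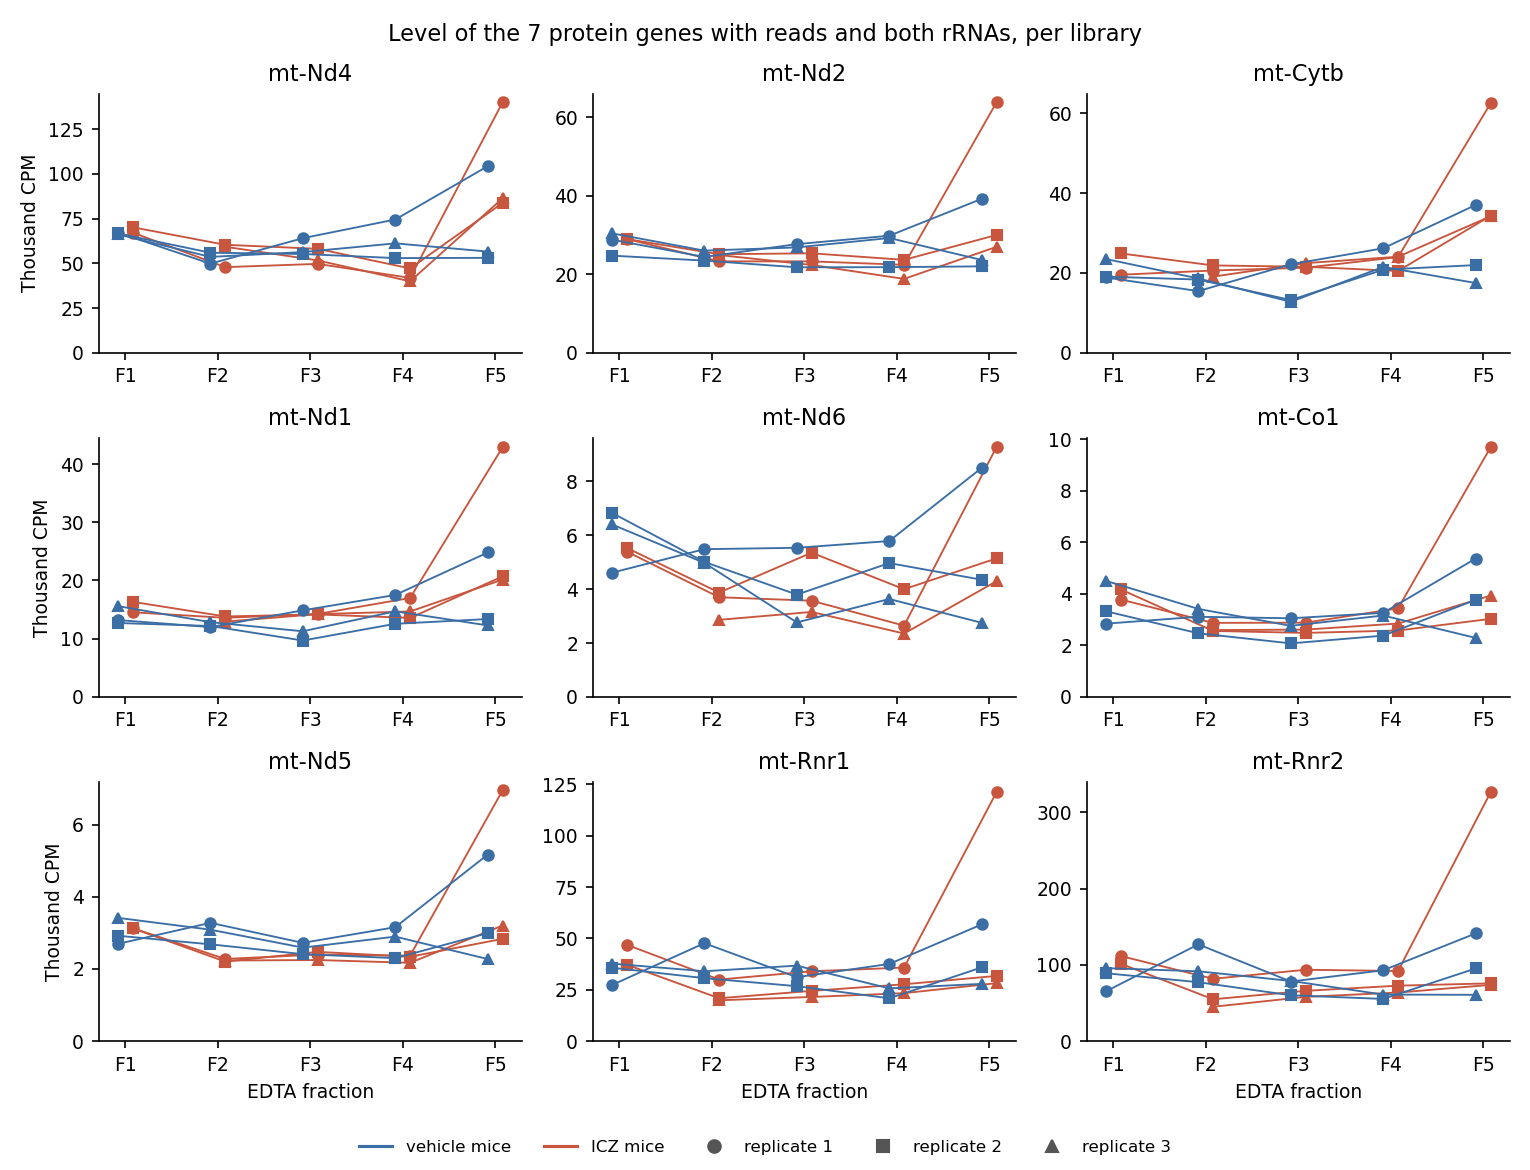
Level of the 7 protein genes and 2 rRNAs with reads in every library, in CPM divided as the axis titles state (vertical axes from 0) by EDTA fraction, 1 point per library and 1 line per mouse, blue for vehicle and red for ICZ. For mt-Nd4 the 3 ICZ mice stand at 39961 to 47177 CPM in F4 and at 83797 to 140020 CPM in F5, and ICZ replicate 1 is the highest F5 library in each panel.

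The mix of protein transcripts was described as each gene's share of the protein gene reads. Nearly all of these reads came from 7 of the 13 genes, among them mt-Co1, whose level is uncertain. The values are therefore not shares of all mitochondrial mRNA. mt-Nd4 made up 47.2% ± 2.69 of protein gene reads in vehicle F1 and 46.1% ± 2.31 in vehicle F5 (SD, n = 3 each), and 46.5% and 45.5% on average in ICZ F1 and F5. From F1 to F5 the share of mt-Nd1 went up in 5 of the 5 mice with both fractions, by 1.34 ± 0.946 percentage points (SD), and that of mt-Nd2 went down in 5 of 5, by -1.41 ± 1.42 points. The share of mt-Cytb went up in 4 of 5, by 2.79 ± 2.17 points. From F2 to F5, which all 6 mice have, mt-Nd2 went down in 6 of 6 (-2.59 ± 1.62 points) and mt-Cytb up in 5 of 6 (1.98 ± 1.52 points). mt-Nd4 had its lowest group mean in ICZ F4, 38.8% ± 2.38, where mt-Cytb had its highest, 20.7% ± 2.49. These shares sum to a fixed total, so a gain of 1 gene is a loss of others, and no test was made on them.

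**Figure D5:**
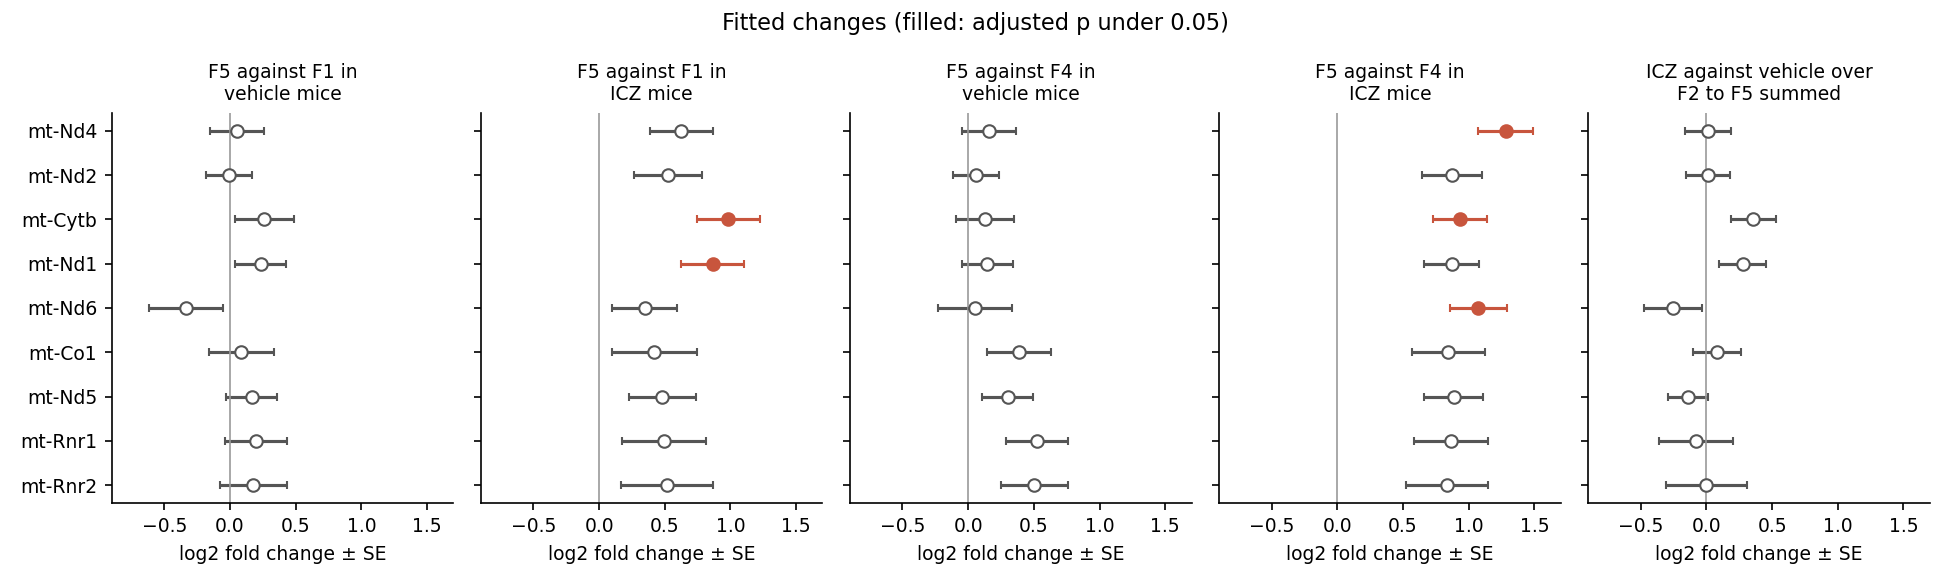
Log2 fold changes with SE (horizontal axes) of the 7 protein genes and 2 rRNAs in 5 comparisons, filled where the adjusted p is under 0.05. The F5 against F4 panel of the ICZ mice holds 3 filled points, from 0.94 (mt-Cytb) to 1.28 (mt-Nd4), the F5 against F1 panel of the ICZ mice 2, and the others none.

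ICZ was compared with vehicle first on 1 profile per mouse, the sum of its F2, F3, F4 and F5 counts, with 3 mice on each side. No mt- row passed, nor did any other gene: 0 of 15497 passed with edgeR (0%), and 886 had an unadjusted p below 0.05. Median log2 fold changes were 0.01 for the 7 protein genes, -0.04 for the 2 rRNAs and -0.14 for the 15 tRNA rows, beside 0.01 over all genes tested. mt-Cytb had 0.36 ± 0.17 and mt-Nd1 0.28 ± 0.18 (SE). Mice were also taken as pairs by replicate number, a pairing that was read from these same counts and is uncertain. With the number as a block 1.49% of genes passed, among them mt-Cytb as the single mt- row (0.37 ± 0.09, adjusted p = 0.046). mt-Nd1 had 0.29 ± 0.08 there (adjusted p = 0.093).

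In F1 the glutamate tRNA row had the smallest p of the mt- rows between the treatments. mt-Te had 191, 279 and 339 CPM in the vehicle mice and 70.6 and 87.2 CPM in the ICZ mice. The groups did not overlap, and the log2 fold change was -1.77 ± 0.27 (SE), which did not pass (adjusted p = 0.24). Without vehicle replicate 3 it passed, at -1.57 (adjusted p = 0.021). Without a block 0.0324% of genes passed and 0 mt- rows. With the replicate number as a block, in which only replicates 1 and 2 carry the contrast, 0.365% passed, and mt-Te was lower under ICZ (-1.55 ± 0.12, adjusted p = 5.1e-06). Whether the numbers pair the mice was not examined in F1, so this blocked value is uncertain. The glutamine row mt-Tq, also on the minus strand, had 351, 567 and 578 CPM in the vehicle mice and 298 and 271 CPM in the ICZ mice, without overlap (-0.81 ± 0.22, adjusted p = 0.90). In the other direction mt-Rnr2, mt-Ts2 and the threonine row mt-Tt lay above vehicle without overlap in F1, with log2 fold changes of 0.35, 0.44 and 0.77 that did not pass. The share of all genes without overlap was not counted, and groups this small separate easily. The separations in F1 are therefore not read as results. Of the 7 minus-strand rows 4 had negative values in F1, and mt-Tp, mt-Ta and mt-Tn had 0.43, 0.21 and 0.38. In F2 to F5 the mt-Te values of the treatments overlapped. The protein genes had a median of 0.06 in F1, and mt-Nd6, which lies next to mt-Te on the same strand, had -0.12 ± 0.18.

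In F2 both rRNAs and some protein and tRNA rows were lower under ICZ in the paired fit. That pairing is uncertain, and in F2 deviations of same-numbered mice correlated at 0.155, 0.103 and 0.142. The paired values in F2 are therefore uncertain. mt-Nd6 had 5485, 5013 and 4976 CPM in the vehicle mice and 3700, 3874 and 2861 CPM in the ICZ mice. The groups did not overlap (-0.60 ± 0.16, adjusted p = 0.20 without a block). mt-Rnr1 had 47671, 30632 and 34012 CPM in vehicle and 29949, 20845 and 19851 CPM in ICZ, without overlap (-0.70 ± 0.22, adjusted p = 0.27). mt-Nd5 had 3281, 2685 and 3091 CPM in vehicle and 2279, 2205 and 2236 CPM in ICZ, also without overlap (-0.46 ± 0.14, adjusted p = 0.25). mt-Nd1 (11993 to 12842 CPM in vehicle, 12929 to 13819 in ICZ) and mt-Cytb (15451 to 18615 and 19079 to 21884 CPM) lay above vehicle without overlap, and neither passed. As in F1, the share of all genes without overlap was not counted, and the separations alone are not read as results. Without a block 0.0165% of genes passed and 0 mt- rows. With the replicate number as a block 1.82% passed, among them 7 mt- rows, all lower under ICZ: mt-Nd5 (adjusted p = 0.028), mt-Nd6 (0.0083), mt-Rnr1 (0.0035), mt-Rnr2 (0.0052), mt-Tm (0.0015), mt-Tp (0.00033) and the valine row mt-Tv (0.039). Of these, mt-Rnr2, mt-Tm, mt-Tp and mt-Tv overlapped between the treatments. mt-Nd1, mt-Nd2, mt-Nd4, mt-Cytb and mt-Co1 were not among them, and in the paired fit mt-Cytb had 0.21 ± 0.11, mt-Nd2 -0.04 ± 0.11 and mt-Co1 -0.18 ± 0.11. T cell markers summed to 337 to 797 CPM in vehicle F2 and 131 to 266 CPM in ICZ F2, with none of 8 at 0. Stroma and muscle markers summed to 12.2 to 17.4 CPM and 42.9 to 102 CPM, with 3 and 1 of 10 at 0. Median log2 fold changes were -1.31 for T cell, 0.91 for Paneth cell, 0.54 for proliferation and 0.40 for stem cell markers. They were -0.06 for enterocyte, 0.11 for goblet cell and -0.23 for dissociation-response markers. No member of any of these lists passed in F2. Their part in the F2 values was not tested.

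In F3, F4 and F5 no mt- row passed between the treatments, where 0.00815%, 0% and 0% of genes passed and 1122, 349 and 342 had an unadjusted p below 0.05. In F4 the 7 minus-strand rows that were tested all had negative log2 fold changes, with a median of -0.47, against 4 of 17 plus-strand rows (median 0.05); mt-Nd6 had -0.68 ± 0.23 and mt-Nd4 -0.55 ± 0.22 (SE, adjusted p = 1.00 for both). In F5 all 7 protein genes had positive values, from 0.29 to 0.81 with a median of 0.56, against 0.01 over all genes tested. Every one of the 24 rows overlapped between ICZ F5 and vehicle F5, vehicle replicate 1 being the highest vehicle library for each protein gene, and the smallest adjusted p of the protein genes was 1.00.

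Nuclear genes that copy or transcribe the mitochondrial genome, handle its RNA or regulate genes of the mitochondria were read beside the mt- rows. They came from a list of 45 genes of which 42 could be tested. From F1 to F5 in the vehicle mice 13 rose and 2 fell, where 14.9% of all genes tested were higher and 13.2% lower. The list had a median log2 fold change of 0.35 against 0.02 over all genes tested. Pprc1, a relative of the PGC-1 coactivators, rose by 1.35 ± 0.27 on the log2 scale (SE, adjusted p = 0.0014). Trmt10c (0.93 ± 0.22) and Hsd17b10 (0.50 ± 0.12), which are subunits of the mitochondrial RNase P that cuts the 5′ ends of tRNAs, and the RNA-binding Fastkd1 (0.80 ± 0.18) rose as well. Ppargc1a, the coactivator PGC-1 alpha that drives mitochondrial biogenesis, fell by 0.72 ± 0.15, and the termination factor family member Mterf2 fell by 0.76 ± 0.20.

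In the ICZ mice 14 of the 42 rose and 3 fell from F1 to F5, with a median of 0.45, where 16.5% of all genes tested were higher and 16% lower. Fastkd2, which binds the 16S rRNA (1.65 ± 0.23), the oligoribonuclease Rexo2 (1.05 ± 0.17), Pprc1 (1.64 ± 0.32) and the exonuclease Mgme1 (1.30 ± 0.26) had the smallest p among those that rose. Ppargc1a (-0.81 ± 0.15), the orphan receptor Esrra (-0.61 ± 0.21) and Mterf2 (-0.60 ± 0.22) fell. Between F4 and F5 of the ICZ mice, where 3 protein genes rose, 0 of the 42 passed and the median was -0.03. Between ICZ and vehicle 0 passed in the summed comparison and in each fraction. Mitochondrial translation factors rose for 10 of 25 in the vehicle mice, among them the tyrosyl and glutamyl tRNA synthetases Yars2 (1.16 ± 0.21) and Ears2 (1.11 ± 0.25), and for 11 of 25 in the ICZ mice, to be read beside the same 14.9% and 16.5% of all genes. Assembly factors of the respiratory complexes rose for 3 and fell for 1 of 30 in the vehicle mice, and rose for 7 of 30 in the ICZ mice, with the complex I factor Ndufaf6 at 0.89 ± 0.25 and 1.14 ± 0.27. Neither count of assembly factors is read as a result about that list, given the 14.9% and 16.5% of all genes that were higher.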

How the data were processed

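RNA of 5 sequential EDTA fractions of mouse small intestinal epithelium was read with a 3′ end kit (QuantSeq). The authors deposited raw read counts per gene, made with BWA 0.7.17-r1188, SAMtools 1.10 and HTSeq 0.11.2 on GRCm38, per the submitters' processing notes, which list FastQC 0.11.2 too. The strand setting of the counting is not given in the sources used here. The 5 summary lines of the table, which name no gene, were left out of library sizes and tests. Of these, low-quality reads made up 18.0% to 26.5% and ambiguous reads 3.61% to 5.10% of all reads per library. A library labelled undetermined entered no comparison.

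Counts were tested with edgeR 4.0.16 in R 4.3.3 (quasi-likelihood test, robust, TMM sizes, filterByExpr, Benjamini-Hochberg adjustment over all genes tested, threshold 0.05). The SE of a log2 fold change was taken from the F statistic. Fractions were compared in vehicle and in ICZ mice apart, with the mouse as a block. ICZ and vehicle were compared on the sum of each mouse's F2, F3, F4 and F5 counts and within each fraction, without a block. For the summed counts, deviations of same-numbered vehicle and ICZ mice correlated at 0.381, 0.248 and 0.472, and the block takes such mice as pairs. Within F2 the correlations were 0.155, 0.103 and 0.142, and within F3 0.208, 0.0289 and 0.164. Within F4 they were 0.267, 0.0302 and 0.0513, within F5 0.317, -0.0598 and 0.439, and F1 was not examined. The pairing was thus read from the same counts that the blocked fits test, and it is uncertain. In the sample titles the vehicle and ICZ mice of replicates 2 and 3 share an animal number, and those of replicate 1 do not. Blocked values stand beside each result they change. The labels do not state a shared batch. CPM used TMM sizes over all 29 libraries. Overlap of CPM ranges was read for mt- rows only, without a count over all genes. No duplicate library was found among 28 replicate pairs (chi-square per degree of freedom 5.18 to 111).

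Alternatives were DESeq2 1.42.0, limma 3.58.1 (voom), other scalings, no filter, F4 in place of F5 and each replicate left out. The comparisons of neighbouring fractions were added after the data had been seen. The edgeR steps were tested on simulated data. Nuclear copies were found with BLAST+ 2.17.0 among GENCODE M21 transcripts (GRCm38); no whole genome was searched. Named were all protein genes and rRNAs, the tRNAs with most reads or past a test, and, from gene lists, those of smallest p. Names given for empty rows and for values set beside these fall outside that rule. The members, lists and comparisons were chosen with earlier results of these data known.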

Additional observations from a re-analysis of the deposited data

How the results depend on the processing

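Counts below are of mt- rows past the adjusted threshold. They are to be read beside the calls over all genes, which moved with the same changes. From F1 to F5 in vehicle mice (3 rows) the count was 12 with no filter, 6 with DESeq2, 7 with limma voom, 5 with F4 in place of F5, and 0 to 5 with a replicate left out. Over all genes 3703 passed, with 3780, 3620, 3765, 3272 and 886 to 4215 under those changes. Over any vehicle fraction 2710 genes passed. It was 3872 with no filter, 3225 with DESeq2, 2829 with limma voom and 260 to 3826 with a replicate left out. The count of mt- rows there (2 rows) was 21, 6 and 7 with the first 3 changes, and 0 to 5 with a replicate left out. From F1 to F5 in ICZ mice (5 rows) it was 10 with library totals, 17 with no filter, 10 with limma voom, 12 without the F5 library of ICZ replicate 1, 8 with F4 in place of F5, and 2 to 13 with a replicate left out. Over all genes F5 against F1 in ICZ mice had 4339 calls. It had 3161 with library totals, 4267 with no filter, 4375 with limma voom, 5404 without that F5 library and 3573 with F4 in place of F5. From F4 to F5 in ICZ mice 3 mt- rows passed, 14 with no filter and 5 without the F5 library of ICZ replicate 1. With a replicate left out the count was 0 to 4. Over all genes 67 passed, with 385, 224 and 0 to 310 under those changes. Without the replicate block the ICZ counts of mt- rows were 2 for F5 against F1 and 0 for F5 against F4. Over all genes they were 4010 and 0. Between ICZ and vehicle (0 rows throughout) the replicate block, which takes same-numbered mice as pairs, gave 1 row in the summed counts, 1 in F1 and 7 in F2. Over all genes the block gave 231, 45 and 221, against 0, 4 and 2 without it. The block changed no count of mt- rows in F3, F4 or F5. Over all genes no filter gave 57 in F1, 351 in F2, 221 in F3, 26 in F4 and 331 for the ICZ effect between fractions. Among mt- rows no filter gave 2 in F1, 6 in F2, 2 in F3, 2 in F4 and 14 for the ICZ effect between fractions. DESeq2 gave 2 in F1 and 5 in F2, limma voom gave 1 in F1, and leaving out a replicate gave 0 to 2 in F1, 0 to 2 in F2 and 0 to 1 in F3. Over all genes DESeq2 gave 18 in F1 and 125 in F2, and limma voom gave 6 in F1. With a replicate left out 0 to 267 genes passed in F2 and 0 to 498 in F3. The cause was not tested for any of these.

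Signs turned for mt-Nd1 (-0.16 to 0.51), mt-Nd4 (-0.30 to 0.21) and mt-Cytb (-0.14 to 0.61) from F1 to F5 in vehicle mice with a replicate left out, the lowest value being that without vehicle replicate 1. With F4 in place of F5, mt-Nd4 had -0.10 in vehicle mice and -0.66 in ICZ mice, and mt-Nd1 had -0.0075 in ICZ mice. The ratio of the protein gene share in vehicle F5 to vehicle F1 was 0.960 to 1.26 with a replicate left out, and that of ICZ F5 to vehicle F5 was 1.21 to 1.54. Set against reads of genes other than mt- rows, the ratios were 2.17 (ICZ F5 to F4), 1.88 (ICZ F5 to F1) and 1.54 (ICZ F5 to vehicle F5). The change of mt-Nd2 from F1 to F5 was -3.61 percentage points when mt-Nd4 was left out of the total. The tRNA rows with the fewest reads in every library were mt-Tn (3 to 22 reads per library) and mt-Tt (1 to 31); what depth does to their tests was not tested.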

Other observations

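The library labelled undetermined, which belongs to no group, had 14.1% of its gene reads in the mitochondrial protein genes, 11.5% in the rRNAs and 0.125% in the tRNA rows.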
